A study of Mus musculus with 6 samples.

Results

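The transforming growth factor beta (TGF-beta) family was followed in 4T1 cells, a mouse mammary adenocarcinoma line, through 9 genes: the ligands Tgfb1, Tgfb2, Tgfb3, Inhba and Bmp4, the receptors Tgfbr1, Tgfbr2 and Tgfbr3, and the intracellular inhibitor Smad7. The 9 were taken by gene name from a deposited expression table of 24421 genes. Cultured cells carried either a short hairpin RNA against HSF1, the transcription factor of the heat shock response (shHSF1, 3 libraries), or a control hairpin (shCTL, 3 libraries), and polyadenylated RNA was sequenced from each. Both groups carried a hairpin, and all cells grew in serum-containing medium. The labels do not say how many hairpins were used against HSF1, whether each line was 1 clone or a pool, or whether the 3 libraries of a group came from separate cultures, so p-values here measure the spread of these libraries alone, part or all of which may be technical.

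No member passed the test over all genes with the 6 libraries. Tgfb2 was higher in each shHSF1 library than in any shCTL library, at a ratio of means of 2.87, and Tgfbr1 was lower in each, at a ratio of 0.702. Of all genes tested, 20% had groups that did not overlap (12.9% higher, 7.16% lower). Inhba, like Tgfbr1 and Tgfb3, stood below its same-numbered control in each of 3 pairs. The share of all genes that did so was not counted. Leaving out the 2 libraries numbered 1, which stand apart, Tgfb2 was called higher and Inhba lower, beside 11.1% of all genes tested (7.04% higher, 4.04% lower). Tgfb1 and Tgfbr2, the most abundant ligand and receptor, had ratios of 1.11 and 1.01.

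Values are reads per kilobase of gene length scaled to library size (RPKM), so that levels can be compared between genes. The 6 libraries held 23750025 to 36903175 reads assigned to genes, so that for a gene of 2 kb a count of 3 reads came to 0.0406 to 0.0632 RPKM. The 2 libraries numbered 1 lay apart from the other 4 on the first principal component (53.8% of variance), at −38.5 (shHSF1) and −47.0 (shCTL) against values from 13.4 to 30.7. On the second component (26.0% of variance) shHSF1 replicates 1 to 3 lay at 31.0, 15.6 and 15.3. The shCTL replicates lay at −23.8, −21.9 and −16.3 on it. What either component reflects was not tested. The knockdown target Hsf1 was at its highest of the 6 in the library labelled shHSF1 replicate 1. Hsf1 had 23.2, 13.8 and 15.4 RPKM in shHSF1 replicates 1 to 3, against 18.4, 20.3 and 20.1 RPKM in shCTL replicates 1 to 3 (log2 difference −0.20, SE 0.21, limma adjusted p = 0.810). Without both replicate 1 libraries the Hsf1 difference was −0.46 (SE 0.10, limma adjusted p = 0.0433), so each member's difference is also given without them, and each direction over 6 libraries rests on that label as given. Epithelial markers, of which 6 of 6 were tested, summed to 1584 to 1847 RPKM in shHSF1 and 2018 to 2632 RPKM in shCTL without overlap. A sum weighs the most abundant markers, and the 6 did not move together. Of these, 3 had differences above 0 and 3 below. The groups were apart higher for 1 and lower for 2, beside 20% of all genes tested (12.9% higher, 7.16% lower). Without both replicate 1 libraries 1 was called higher and 2 lower, beside 11.1% of all genes tested (7.04% higher, 4.04% lower). The replicate block called 1 higher, beside 0.176% of all genes tested in either direction. With replicate 1 as a covariate 1 was called higher, beside 3.89% of all genes tested called higher. The part of these markers in the results was not tested. Endothelial markers summed to 0.143 RPKM at most in either group, with Kdr at 0 throughout. Leukocyte markers summed to 0.16 to 1.12 RPKM in shHSF1 and 0.0354 to 0.11 RPKM in shCTL. Fibroblast markers summed to 15.7 to 22.8 RPKM in shHSF1 and 10.0 to 37.6 RPKM in shCTL, nearly all of it Pdgfra, with Lum at 0. In RNA from whole cultures, fewer cells that express a gene and less of its RNA per cell cannot be told apart.

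TGF-beta ligands are made as precursors and secreted in a latent complex, from which integrins, proteases or thrombospondin release the active dimer. The dimer binds the type II receptor TGFBR2, which phosphorylates the type I receptor TGFBR1, and TGFBR1 in turn activates SMAD2 and SMAD3. Activins use the same SMADs through other receptors, and bone morphogenetic proteins (BMPs) use SMAD1 and SMAD5. In mammary epithelium the pathway is known both for arresting growth and, in carcinoma cells, for driving mesenchymal change, invasion and the dampening of T cell responses.

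The receptor Tgfbr2 and the ligand Tgfb1 were the most abundant members, at means of 53.3 and 42.0 RPKM over the 6 libraries. Tgfbr2 was above Tgfb1 in 5 of 6 libraries, the exception being shCTL replicate 1. Tgfb1 was above the third in order, Tgfbr1 (27.2 RPKM), in all 6, and Tgfbr1 was above Tgfb3 (16.4 RPKM) in all 6. Below these, the order of Tgfb3, Tgfbr3 (13.3 RPKM), Inhba (12.2 RPKM) and Smad7 (10.5 RPKM) was not stable, since each stood above the next in only 2 to 4 of 6 libraries. Tgfb2 (3.04 RPKM) was below Smad7 in every library, and Bmp4 had 1 read in the 6 libraries together. Of the 9 members, 8 had at least 0.5 RPKM in 3 or more libraries and were tested, and these 8 were above that level in every library, so the filter did not favour either group.

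**Figure D1:**
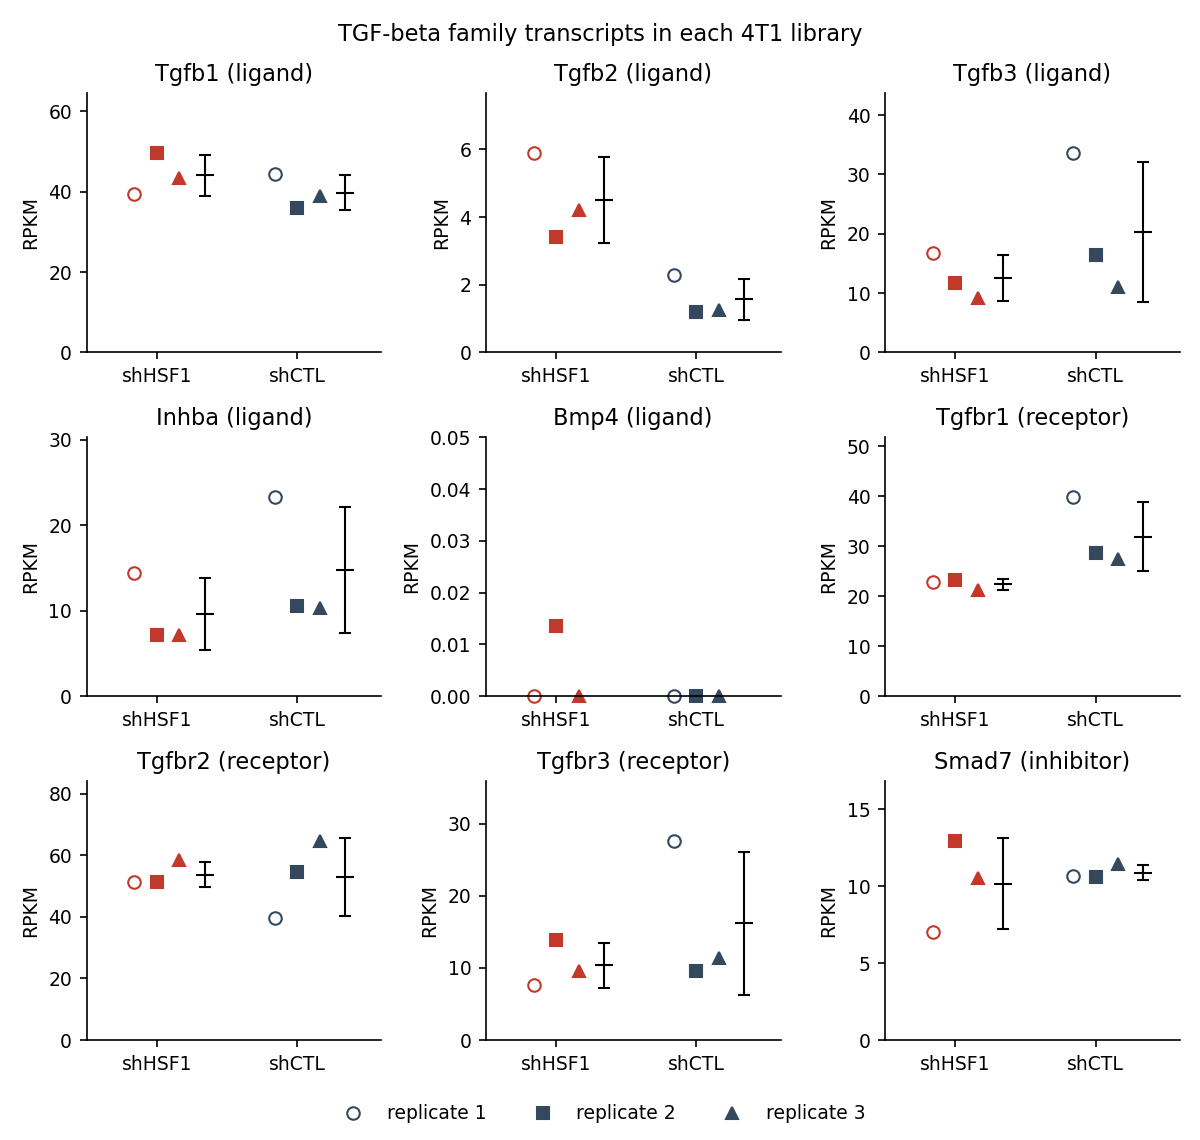
RPKM of each member in each library, shHSF1 at left and shCTL at right in every panel, with open circles for replicate 1, squares for replicate 2 and triangles for replicate 3; bars are the mean ± SD of 3 libraries (not drawn for Bmp4). All 3 shHSF1 values of Tgfb2 lie above, and all 3 of Tgfbr1 below, those of shCTL, while Tgfb3, Tgfbr3 and Inhba are highest in shCTL replicate 1.

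Tgfb1, the most abundant of the 3 TGF-beta isoforms, had 39.4, 49.6 and 43.5 RPKM in shHSF1 replicates 1 to 3, against 44.4, 35.8 and 39.0 RPKM in shCTL. The groups overlapped, because the library labelled shHSF1 replicate 1 was the lowest of its group and shCTL replicate 1 the highest of its own. The difference on the log2 scale was 0.15 (SE 0.14, 95% interval −0.20 to 0.50, limma adjusted p = 0.783), and leaving out both replicate 1 libraries gave 0.31 (SE 0.10, limma adjusted p = 0.108). A rise beyond about 0.50 or a fall beyond about 0.20 on this scale thus lies outside the interval of the 6 libraries, and no difference was shown over them. Without both replicate 1 libraries the 95% interval was 0.051 to 0.57, above 0, but Tgfb1 was not called there. Tgfb1 lies on chromosome 7 (25687002 to 25704996, plus strand, mm10).

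Tgfb2, the isoform that needs the co-receptor TGFBR3 for strong binding, was the member that differed most. It had 5.89, 3.42 and 4.21 RPKM in shHSF1 replicates 1 to 3 (681, 597 and 570 reads), against 2.28, 1.19 and 1.25 RPKM in shCTL (265, 134 and 160 reads). The lowest shHSF1 library was above the highest shCTL library, and in both groups replicate 1 was the highest. The means were 4.51 ± 1.26 RPKM in shHSF1 and 1.57 ± 0.611 RPKM in shCTL (SD, n = 3 each), a ratio of 2.87, and the same-numbered ratios were 2.58, 2.87 and 3.38. The difference on the log2 scale was 1.28 (SE 0.29, 95% interval 0.60 to 1.97), which in limma had an adjusted p of 0.186, so over 6 libraries Tgfb2 did not pass the threshold of 0.05. By exact permutation, two-sided, p was 0.1, and 3 libraries against 3 allow none smaller. Tgfb2 was called higher in shHSF1 when both replicate 1 libraries were left out (1.32, SE 0.15, limma adjusted p = 0.0127) and when replicate 1 entered as a covariate (1.28, SE 0.13, limma adjusted p = 0.0158). With the replicate number as a block it stayed short of the threshold (limma adjusted p = 0.0771).

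Tgfb2 lies on chromosome 1 (186623186 to 186705992, minus strand, mm10). GENCODE M21 annotates an antisense RNA, Gm29491, across its start, which shares 127 of its 4725 counted bases. The strand setting of the counting is not stated in the sources used here, so reads from those bases cannot be told apart. RefSeq's promoter table (GRCm38.p6, the same assembly as mm10) held 6 of the 9 members in 7 windows. The 250 bases before the start of Tgfb2, the member furthest apart between the groups, and of Tgfb1, the most abundant isoform and close to even between them, are shown side by side (strand as transcribed, 5′ to 3′). Capitals mark a TATA box (TATAAA), an E-box (CACGTG) and GC boxes (GGGCGG), on either strand. The windows are chr1:186705990-186706239 (minus strand) for Tgfb2 and chr7:25686752-25687001 (plus strand) for Tgfb1. The starts are RefSeq's and can differ from those of the counted genes. The Tgfb2 window reaches into the counted gene, which ends at 186705992. The Inhba window ends at 16011850, while the counted gene starts at 16014475.
Tgfb2: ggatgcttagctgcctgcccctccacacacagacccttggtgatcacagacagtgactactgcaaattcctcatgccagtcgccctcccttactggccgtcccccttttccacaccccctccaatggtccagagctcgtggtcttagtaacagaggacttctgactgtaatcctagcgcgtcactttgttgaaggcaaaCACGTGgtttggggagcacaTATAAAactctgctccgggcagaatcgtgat
Tgfb1: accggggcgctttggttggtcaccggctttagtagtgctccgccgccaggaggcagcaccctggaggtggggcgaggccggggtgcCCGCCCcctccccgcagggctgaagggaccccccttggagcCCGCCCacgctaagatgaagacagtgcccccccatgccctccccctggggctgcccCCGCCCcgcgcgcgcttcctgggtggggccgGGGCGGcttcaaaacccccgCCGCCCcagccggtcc
The Tgfb2 window held 1 TATA box whose first base lay 31 bases before the start and 1 E-box 51 bases before it, with no GC box, and was 53.6% G and C. The Tgfb1 window held 5 GC boxes and neither other motif, and was 75.2% G and C, against a median of 52.4% over 32851 windows. Across those windows 12.4% held the TATA box, 6.02% the E-box and 32.7% the GC box, in either orientation. Among the 7 member windows the TATA box was also in that of Inhba and the E-box also in that of Bmp4. The GC box was also in the Bmp4 window and in 1 of the 2 Tgfbr1 windows. The longer heat shock element searched, 3 GAA units in alternating orientation with 2 free bases between neighbours, was in 0.466% of all windows and in none of the 7. The shorter one of 2 units, GAANNTTC or TTCNNGAA, was in 12.8% of all windows and among the 7 only in 1 of the 2 Tgfbr1 windows. The palindrome GTCTAGAC, a binding motif of SMADs, was in 0.167% of all windows and in none of the 7. A shorter motif can lie within a longer one, and the matches describe these letters and no more.

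Tgfb3, the third isoform, had 16.7, 11.7 and 9.24 RPKM in shHSF1 replicates 1 to 3, against 33.6, 16.4 and 11.0 RPKM in shCTL. It was lower in shHSF1 in each same-numbered pair, but the groups overlapped, with or without the replicate 1 libraries, which were the highest of their groups. The difference on the log2 scale was −0.56 (SE 0.42, 95% interval −1.57 to 0.44, limma adjusted p = 0.685). It was −0.35 (SE 0.21, limma adjusted p = 0.295) without both replicate 1 libraries and −0.13 without shCTL replicate 1 alone. Exons of Tgfb3 (chromosome 12, 86056743 to 86079041, minus strand) share 163 and 257 bases with the opposite-strand transcripts Gm37804 and Gm48008 of GENCODE M21.

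The summed level of the 3 isoforms was 61.2 ± 3.96 RPKM in shHSF1 and 61.6 ± 16.1 RPKM in shCTL (SD, n = 3 each). Those near-equal sums rest on shCTL replicate 1, at 80.2 RPKM, since without both replicate 1 libraries the means were 60.8 RPKM in shHSF1 and 52.3 RPKM in shCTL. Tgfb2 made up 9.48%, 5.29% and 7.40% of that sum in shHSF1 replicates 1 to 3, against 2.84%, 2.23% and 2.44% in shCTL, and Tgfb3 made up 27.0%, 18.1% and 16.2% in shHSF1, against 41.8%, 30.8% and 21.4% in shCTL. Tgfb1 had 63.5%, 76.6% and 76.4% in shHSF1, against 55.3%, 67.0% and 76.2% in shCTL. The Tgfb1 share differed by 6.01 percentage points (exact two-sided permutation p = 0.5), and by 0.586 points without shCTL replicate 1. Leaving out both replicate 1 libraries gave mean shares of 76.5% in shHSF1 and 71.6% in shCTL for Tgfb1. It gave 6.34% in shHSF1 and 2.33% in shCTL for Tgfb2, and 17.2% in shHSF1 and 26.1% in shCTL for Tgfb3. Over the 6 libraries the Tgfb2 shares did not overlap between the groups, while the Tgfb1 and Tgfb3 shares did. Within replicates 2 and 3 alone the Tgfb1 and Tgfb3 shares did not overlap either, Tgfb1 narrowly (76.4% in shHSF1 against 76.2% in shCTL). The shares of 1 library are tied because they sum to the whole. The ratio of Tgfb2 to Tgfb3 was 0.351, 0.293 and 0.456 in shHSF1, against 0.0678, 0.0726 and 0.114 in shCTL.

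**Figure D2:**
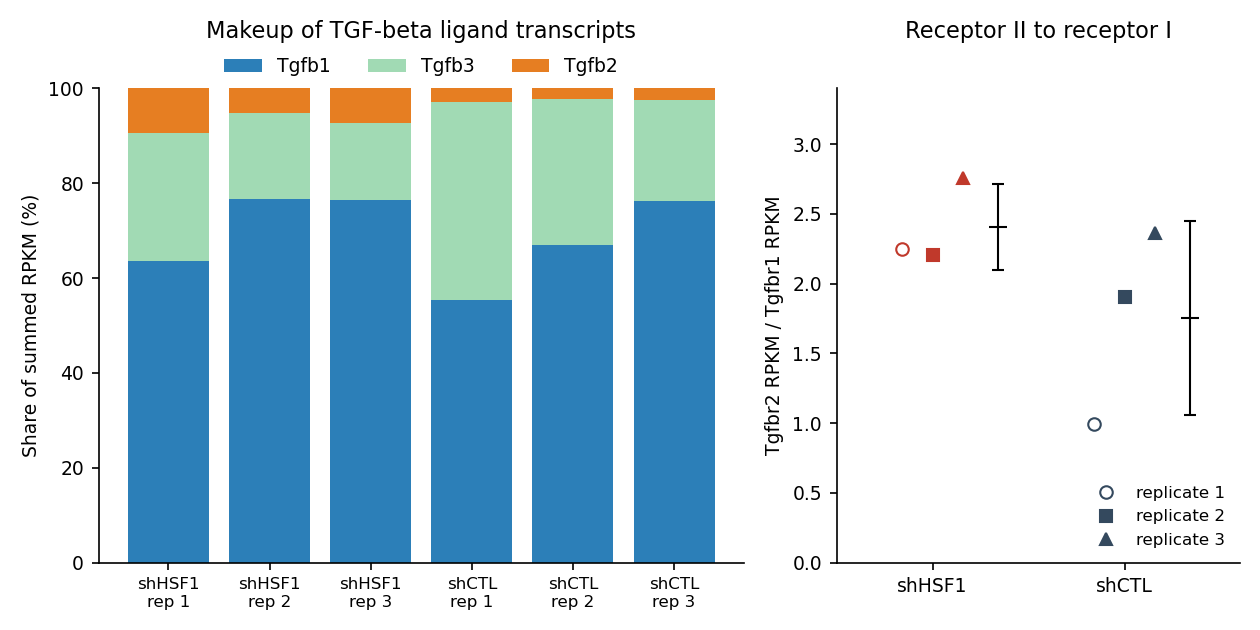
Left, the share of Tgfb1, Tgfb3 and Tgfb2 in their summed RPKM (percent) in each library, shHSF1 then shCTL; right, the ratio of Tgfbr2 to Tgfbr1 RPKM by library with the mean ± SD of 3 libraries, open circles for replicate 1. The Tgfb2 share is 5.29% or more in each shHSF1 library and 2.84% or less in each shCTL library, and the receptor ratio is lowest in shCTL replicate 1.

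Inhba encodes the inhibin beta A chain, whose dimer is activin A. It had 14.5, 7.20 and 7.21 RPKM in shHSF1 replicates 1 to 3 (542, 406 and 316 reads), against 23.3, 10.6 and 10.4 RPKM in shCTL (878, 385 and 431 reads). Each shHSF1 library was below its same-numbered control, at ratios of 0.621, 0.679 and 0.695, while the groups overlapped because replicate 1 was high in both. Over 6 libraries the difference on the log2 scale was −0.56 (SE 0.40, limma adjusted p = 0.668), and it ran from −0.88 without the library labelled shHSF1 replicate 1 to −0.19 without shCTL replicate 1. Leaving out both gave −0.51 (SE 0.097, limma adjusted p = 0.0331), and replicate 1 as a covariate gave −0.56 (SE 0.094, limma adjusted p = 0.0350), so Inhba was called lower in shHSF1 in those 2 fits. It did not pass with the replicate block (limma adjusted p = 0.0939). Inhba lies on chromosome 13 (16014475 to 16027211, plus strand).

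Bmp4, a ligand of the BMP receptors (chromosome 14, 46383520 to 46390599, minus strand), had 1 read in shHSF1 replicate 2 and 0 reads in the other 5 libraries, and was not tested. Both groups were thus under a floor of 3 reads per library.

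Tgfbr1, the type I receptor kinase that phosphorylates SMAD2 and SMAD3, was lower in every shHSF1 library than in any shCTL library. It had 22.8, 23.3 and 21.2 RPKM in shHSF1 replicates 1 to 3, against 39.8, 28.6 and 27.3 RPKM in shCTL. The means were 22.4 ± 1.09 RPKM in shHSF1 and 31.9 ± 6.86 RPKM in shCTL (SD, n = 3 each), a ratio of 0.702. The difference on the log2 scale was −0.48 (SE 0.17, 95% interval −0.89 to −0.069), which did not pass (limma adjusted p = 0.360; exact two-sided permutation p = 0.1). It was −0.33 (SE 0.096, limma adjusted p = 0.0797) with both replicate 1 libraries left out, and over the 17 alternatives tried the adjusted p never fell below 0.0747. Tgfbr1 lies on chromosome 4 (47353305 to 47414924, plus strand).

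Tgfbr2, the type II receptor that binds the ligand first, had 51.3, 51.3 and 58.5 RPKM in shHSF1 replicates 1 to 3, against 39.6, 54.5 and 64.6 RPKM in shCTL. The shHSF1 values lay within the range of shCTL. The difference on the log2 scale was 0.047 (SE 0.20, 95% interval −0.42 to 0.52, limma adjusted p = 0.963), and its sign had no hold: it was −0.11 without both replicate 1 libraries (SE 0.12, limma adjusted p = 0.548), −0.15 without shCTL replicate 1, −0.016 without shHSF1 replicate 3 and −0.014 with median-of-ratios scaling. The level of Tgfbr2 relative to Tgfbr1 was 2.25, 2.20 and 2.76 in shHSF1, against 0.994, 1.90 and 2.36 in shCTL. It was higher in shHSF1 in each same-numbered pair, yet the groups overlapped (difference of mean log2 ratios 0.54, exact two-sided permutation p = 0.3; 0.17 without shCTL replicate 1). Without both replicate 1 libraries its mean was 2.48 in shHSF1 and 2.13 in shCTL. Tgfbr2 lies on chromosome 9 (116087695 to 116175363, minus strand).

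Tgfbr3, or betaglycan, presents ligands, TGF-beta 2 above all, to the signalling receptors and also binds inhibin. It had 7.68, 13.8 and 9.52 RPKM in shHSF1 replicates 1 to 3, against 27.6, 9.55 and 11.4 RPKM in shCTL. The replicate 1 pair differed 1 way by a wide margin (log2 difference −1.78), pair 2 the other way (0.51), and pair 3 by −0.25. Over 6 libraries the difference on the log2 scale was −0.51 (SE 0.42, limma adjusted p = 0.729), and it was −0.054 without shCTL replicate 1 and 0.13 (SE 0.19, limma adjusted p = 0.670) without both replicate 1 libraries. Tgfbr3 lies on chromosome 5 (107106570 to 107289595, minus strand) and shares 297 counted bases with the transcript Gm43422 of GENCODE M21.

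Smad7, which blocks TGFBR1 and is itself induced by TGF-beta and BMP signalling, had 7.04, 12.9 and 10.5 RPKM in shHSF1 replicates 1 to 3, against 10.6, 10.6 and 11.4 RPKM in shCTL. The library labelled shHSF1 replicate 1 was the lowest of the 6 and shHSF1 replicate 2 the highest. The difference on the log2 scale was −0.13 (SE 0.23, limma adjusted p = 0.894). It was 0.098 without the library labelled shHSF1 replicate 1 and 0.082 (SE 0.13, limma adjusted p = 0.690) without both replicate 1 libraries. Smad7 lies on chromosome 18 (75367365 to 75395934, plus strand).

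Over all genes tested, 3 of 11386 (0.0263%) had a limma adjusted p under 0.05, among them none of the 8 tested members. With limma-voom on whole reads, 11 genes passed (0.0966%) and again no member. Blocking on the replicate number gave 20 genes (0.176%) and no member. At an unadjusted limma p under 0.05 there were 2 of 8 members, Tgfb2 higher and Tgfbr1 lower, beside 11.4% of all genes tested (7.88% higher, 3.5% lower). The same 2 members had groups that did not overlap, 1 higher and 1 lower, beside 20% of all genes (12.9% higher, 7.16% lower). Without both replicate 1 libraries 2 of 8 members were called, Tgfb2 higher and Inhba lower, beside 11.1% of all genes (7.04% higher, 4.04% lower). With replicate 1 as a covariate the same 2 were called, beside 5.64% of all genes (3.89% higher, 1.75% lower). The median log2 difference was −0.31 over the 8 members and 0.052 over all genes tested, and without both replicate 1 libraries it was −0.016 and 0.017.

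**Figure D3:**
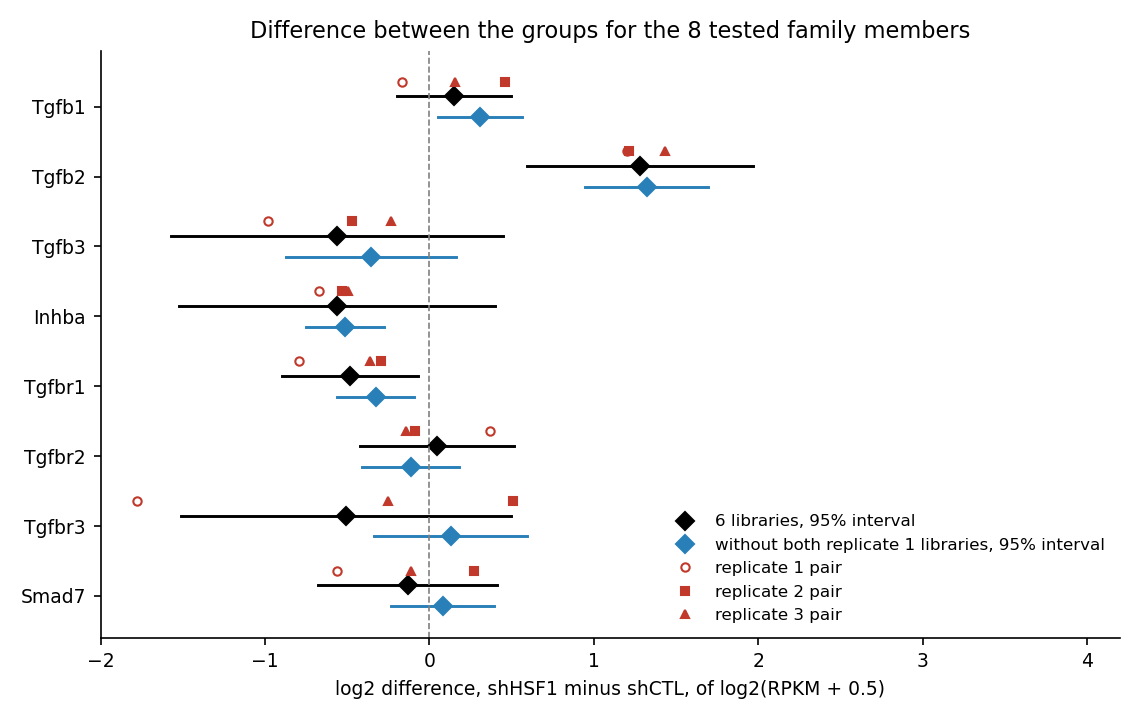
Log2 difference in log2(RPKM + 0.5), shHSF1 minus shCTL, of the 8 tested members: black diamonds for all 6 libraries and blue diamonds without both replicate 1 libraries, each with its 95% interval from limma, and small red symbols for the same-numbered pairs. The pairs of Tgfb2 lie between 1.2 and 1.43 and those of Inhba between −0.67 and −0.50, while those of Tgfbr3 span −1.78 to 0.51.

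Replicate 1 differed from the other replicates in several members. Replicate 1 minus the mean of replicates 2 and 3 was 0.96 in shHSF1 and 1.12 in shCTL for Inhba on the log2 scale. It was 0.66 in shHSF1 and 1.29 in shCTL for Tgfb3, and 0.57 in shHSF1 and 0.69 in shCTL for Tgfb2. Tgfbr3 was lower in replicate 1 of shHSF1 (−0.55) and higher in replicate 1 of shCTL (1.36). Across the 6 libraries, as a description of points that share the replicate 1 difference, Tgfb3 followed Inhba (Pearson r = 0.93) and ran opposite to Tgfbr2 (r = −0.89). Tgfb2 followed no other member closely, its r lying between −0.55 (with Tgfbr1) and 0.45 (with Tgfb1).

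Among 8465 other tested genes with a mean of at least 5 RPKM, the gene whose log2 values were most like those of Tgfb2 was Pmpcb, a subunit of the mitochondrial processing peptidase (r = 0.99). Pmpcb had 61.4, 55.4 and 59.2 RPKM in shHSF1 replicates 1 to 3, against 50.4, 44.8 and 46.2 RPKM in shCTL. For Inhba it was the translation initiation factor subunit Eif3f, for Tgfb1 St5, for Tgfb3 the vesicle tethering subunit Vps11, for Tgfbr1 Dap, for Tgfbr2 the transcription factor Tfap4, for Tgfbr3 the sorting nexin Snx6 and for Smad7 the ubiquitin-conjugating enzyme Ube2t (r between 0.98 and 1.00). With 6 libraries many genes reach such values: 86 were above 0.95 for Tgfb2 and 229 for Inhba.

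The rest of the pathway was read from 6 lists, which overlap: Itgb6, Thbs1, Ltbp2, Pmepa1, Skil, Tgif1, Smad6 and Smad7 were each tested in 2 of them. Counts called without both replicate 1 libraries stand beside 11.1% of all genes tested (7.04% higher, 4.04% lower), and those with replicate 1 as a covariate beside 5.64% (3.89% higher, 1.75% lower). Groups that do not overlap stand beside 20% (12.9% higher, 7.16% lower). Counts at an unadjusted limma p under 0.05 stand beside 11.4% (7.88% higher, 3.5% lower). Of 28 other ligands of the superfamily, 25 stayed below 0.5 RPKM in every library and 3 were tested. None passed over 6 libraries by limma (1 of 3 at an unadjusted p under 0.05) or limma-voom. Gdf11, a myostatin relative, had 4.65, 6.03 and 7.03 RPKM in shHSF1 replicates 1 to 3, against 2.22, 3.53 and 2.97 RPKM in shCTL, with no overlap (log2 difference 0.91, SE 0.23, limma adjusted p = 0.228). It was called without both replicate 1 libraries (0.91, SE 0.14, limma adjusted p = 0.0214). The covariate fit called it as well (limma adjusted p = 0.0272). Bmp7, a BMP ligand and the most abundant of these, had 7.49, 3.97 and 3.90 RPKM in shHSF1, against 5.96, 7.69 and 8.69 RPKM in shCTL. It was called lower without both replicate 1 libraries (log2 difference −0.97, SE 0.11, limma adjusted p = 0.0138) and did not pass over 6 (−0.54, SE 0.28, limma adjusted p = 0.539).

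Of 11 other receptors 7 were tested and none passed by limma (1 at an unadjusted p under 0.05) or limma-voom, with a median log2 difference of −0.0029. Bmpr1a, a type I BMP receptor and the most abundant of them, had 39.8 ± 2.13 RPKM in shHSF1 and 30.2 ± 1.33 RPKM in shCTL (SD, n = 3 each; log2 difference 0.39, SE 0.11, limma adjusted p = 0.274), with no overlap. Acvr1, another type I receptor, had 13.7 ± 1.07 RPKM in shHSF1 and 15.7 ± 1.04 RPKM in shCTL (log2 difference −0.19, limma adjusted p = 0.659), also with no overlap. Neither was called without both replicate 1 libraries (limma adjusted p = 0.0534 and 0.289).

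Of 17 SMADs and SMAD regulators 15 were tested, 9 above 0 and 6 below, with a median of 0.043. The groups were apart higher for 4 of the 15 and apart lower for 2. None passed by limma (2 at an unadjusted p under 0.05) or limma-voom. Smurf2, a ubiquitin ligase that Smad7 brings to the receptors, had 40.7 ± 0.832 RPKM in shHSF1 and 31.2 ± 2.0 RPKM in shCTL (log2 difference 0.38, SE 0.11, limma adjusted p = 0.287). Ski, a co-repressor of SMADs, had 22.3 ± 1.69 RPKM in shHSF1 and 28.0 ± 1.2 RPKM in shCTL (log2 difference −0.33, SE 0.12, limma adjusted p = 0.375). In both the groups did not overlap, and neither passed without both replicate 1 libraries (0.31 for Smurf2, limma adjusted p = 0.0674; −0.26 for Ski, limma adjusted p = 0.133). Smad3, the most abundant of the list, had 53.5 ± 9.66 RPKM in shHSF1 and 60.6 ± 13.0 RPKM in shCTL (log2 difference −0.17, limma adjusted p = 0.838; −0.088 without both replicate 1 libraries). Without both replicate 1 libraries 1 gene of the list was called, beside 11.1% of all genes tested. It was the homeodomain co-repressor Tgif2 (log2 difference 0.54, SE 0.12, limma adjusted p = 0.0428), chosen here after its values were seen.

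Of 23 genes for latency, activation and extracellular antagonism 11 were tested and none passed by limma (2 at an unadjusted p under 0.05) or limma-voom, with a median of 0.014. Fstl3, a secreted protein that binds and blocks activins and myostatin, had 7.59, 11.7 and 11.4 RPKM in shHSF1 replicates 1 to 3 (363, 842 and 638 reads), against 3.12, 3.90 and 4.58 RPKM in shCTL (150, 181 and 243 reads). The groups were well apart, with a ratio of 2.64 (log2 difference 1.29, SE 0.23, limma adjusted p = 0.151). The Fstl3 difference with both replicate 1 libraries left out was 1.35 (SE 0.12, limma adjusted p = 0.0071). Fstl3 also passed once replicate 1 entered as a covariate (limma adjusted p = 0.0135). Itgb6, the beta chain of the integrin that frees latent TGF-beta, had 0.823, 0.764 and 0.778 RPKM in shHSF1, against 0.167, 0.222 and 0.274 RPKM in shCTL (log2 difference 0.84, SE 0.20, limma adjusted p = 0.216). Itgb6 passed the filter on low values through the shHSF1 libraries alone, so it could only be tested as higher; its limma adjusted p was 0.0555 without both replicate 1 libraries and 0.0478 with replicate 1 as a covariate. Thbs1, the thrombospondin that activates TGF-beta and the most abundant of the list, had 351, 115 and 91.7 RPKM in shHSF1, against 116, 139 and 78.8 RPKM in shCTL. Its log2 difference of 0.51 (SE 0.51, limma adjusted p = 0.791) became −0.074 without the library labelled shHSF1 replicate 1 and −0.026 without both replicate 1 libraries.

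Over the 6 libraries, genes known to be induced by TGF-beta gave no common direction. Of 20 listed 14 were tested, 8 above 0 and 6 below, with a median of 0.10, and none passed by limma or limma-voom. The 2 at an unadjusted p under 0.05 were Cdkn1a and Itgb6, and Itgb6 could only be tested as higher. Cdkn1a, the cell cycle inhibitor p21, had 11.7, 11.4 and 8.22 RPKM in shHSF1, against 1.84, 2.74 and 5.34 RPKM in shCTL (log2 difference 1.61, SE 0.35, limma adjusted p = 0.184; 0.0536 without both replicate 1 libraries; 0.0478, a call, with replicate 1 as a covariate). Fn1, fibronectin and the most abundant of the list, had 756, 456 and 382 RPKM in shHSF1, against 927, 713 and 439 RPKM in shCTL (log2 difference −0.38, limma adjusted p = 0.777; −0.42 without both replicate 1 libraries). With replicate 1 as a covariate 3 of the 14 were called, all higher and Itgb6 among them, beside 3.89% of all genes tested called higher. Without both replicate 1 libraries the median was 0.16 over the 14 genes and 0.017 over all genes. In that fit 2 of the 14 were called, both higher, beside 7.04% of all genes tested called higher. One of them, the matricellular protein Ctgf, named after its values were seen, had 18.6, 28.0 and 30.3 RPKM in shHSF1, against 2.47, 16.3 and 17.3 RPKM in shCTL (0.78, SE 0.095, limma adjusted p = 0.0144 without both replicate 1 libraries; adjusted p = 0.510 with them).

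Of 12 genes known to be induced by BMPs 6 were tested, 4 above 0 and 2 below, with a median of 0.25. None passed by limma (2 at an unadjusted p under 0.05) or limma-voom. Id3, an inhibitor of DNA binding by helix-loop-helix factors and the most abundant of the list, had 44.4, 71.7 and 71.9 RPKM in shHSF1, against 25.9, 37.9 and 36.8 RPKM in shCTL, with no overlap (log2 difference 0.88, SE 0.25, limma adjusted p = 0.261). Its relative Id4 had 1.65, 1.6 and 1.03 RPKM in shHSF1, against 0.636, 0.634 and 0.621 RPKM in shCTL (0.75, SE 0.22, limma adjusted p = 0.275; 0.67 without both replicate 1 libraries). With replicate 1 as a covariate Id3 passed (limma adjusted p = 0.0154). Called higher when both replicate 1 libraries were left out were Id3 (0.93, SE 0.083, limma adjusted p = 0.0075) and Id1 (1.03, SE 0.16, limma adjusted p = 0.0224, named after its values were seen). Of all genes tested, 7.04% were called higher in that fit. Smad6 and Smad7, also on the list, were not called there. The median in that fit was 0.54 over the 6 genes and 0.017 over all genes.

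**Figure D4:**
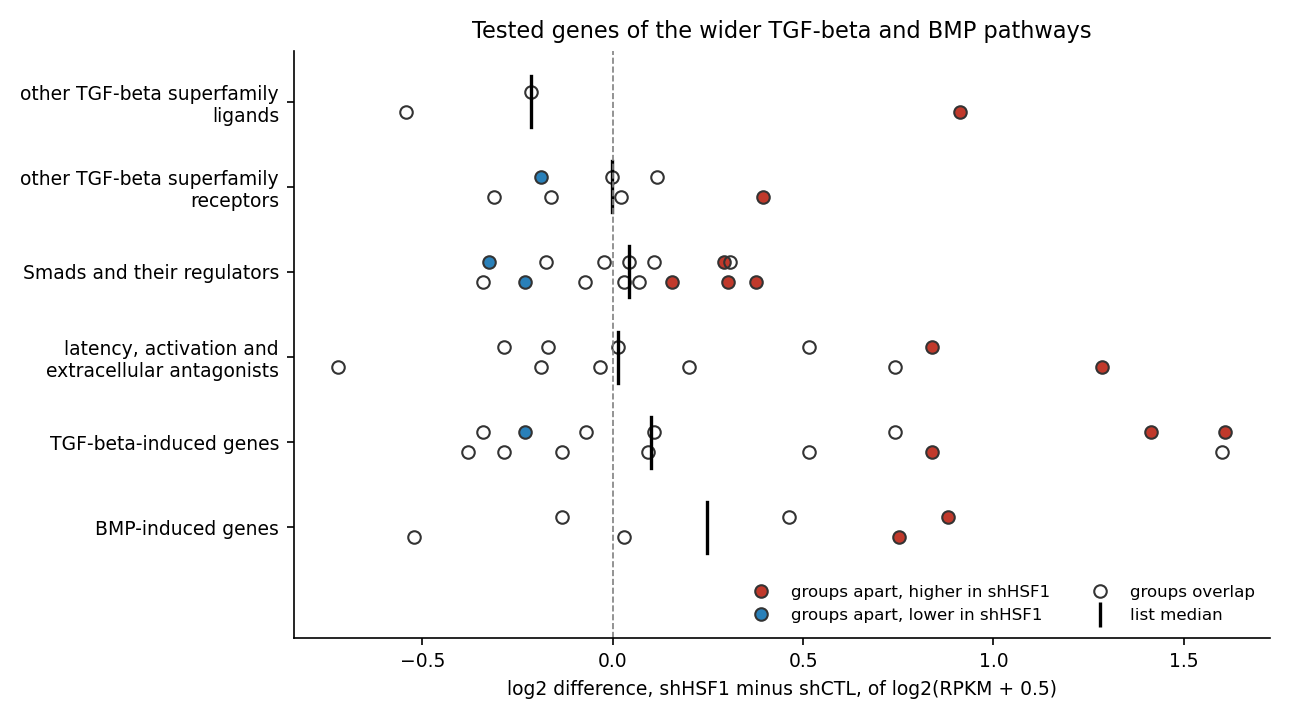
Log2 difference in log2(RPKM + 0.5), shHSF1 minus shCTL over 6 libraries, of each tested gene of 6 lists; red and blue points are genes whose 3 shHSF1 values all lie above or all below the 3 shCTL values, open points overlap, and black bars are list medians. Medians lie between −0.22 and 0.25, and no point passed the test over all genes.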

How the data were processed

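RNA of 6 libraries of 4T1 cells was prepared with a kit for polyadenylated messenger RNA, per the labels' protocols. The submitters' processing notes name STAR, featureCounts and build mm10; tool versions, annotation, strand setting and the counting of shared reads are not stated there. For 24421 genes the authors deposited RPKM, with gene lengths, per the file headers. Multiplied by length, 100% of the values were whole reads (tolerance 0.001), and these sum to the library sizes given. Read totals and the floor of 3 reads cover counting error only. Columns of unmatched samples numbered 0. A spreadsheet had turned 27 gene symbols into dates; none is reported.

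Groups and replicate numbers are those of the sample titles. The scale was log2(RPKM + 0.5), on which differences of low genes are understated. The 11386 genes that reached 0.5 RPKM in 3 or more libraries were fitted with limma 3.58.1 in R 4.3.3 (variance trend, no block) and adjusted by Benjamini-Hochberg at 0.05 over all genes tested; shHSF1 minus shCTL. Single derived values had exact two-sided permutation tests, which cannot go below 0.1 here. Alternatives were pseudocounts of 0.1 and 1, no filter, a mean of at least 1 RPKM, median-of-ratios and TMM scaling, no variance trend, limma-voom on whole reads, the replicate block, replicate 1 as a covariate, and libraries left out. The code was tested on simulated data. The members and lists were chosen with earlier results of these data known. Named were all members and Hsf1; from each list up to 3 genes past the test, or where none passed the 2 of smallest p, plus the most abundant; and for each member the gene most like it; a few list genes are not reported here. The main fit did not pair the samples, because what a replicate number stands for is not in the labels. Same-numbered pairs are given as a description, and the replicate block as an alternative. Same-numbered libraries deviated together from their group means (r = 0.58, 0.18 and 0.68 across genes, which are not independent). Replicates 2 and 3 did so crosswise too, at r = 0.51 for shHSF1 replicate 3 with shCTL replicate 2. The r was 0.24 for shHSF1 replicate 2 with shCTL replicate 3, above the 0.18 of the pair numbered 2. A pairing within replicates 2 and 3 is thus not shown by these values. Tables and figures were made in Python 3.11.15 with pandas 2.3.3, numpy 2.4.6 and matplotlib 3.10.9.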

Additional observations from a re-analysis of the deposited data

How the results depend on the processing

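Over 17 alternatives, Tgfb1 and Tgfb2 stayed above 0 and Tgfb3, Tgfbr1 and Inhba below it, with log2 differences from 0.064 to 0.31, 1.09 to 1.53, −0.92 to −0.13, −0.58 to −0.31 and −0.88 to −0.19. Tgfbr2, Tgfbr3 and Smad7 changed sign in 7 fits in all. Tgfbr2 was −0.014 with median-of-ratios scaling and −0.11 without both replicate 1 libraries, and ran from −0.15 to 0.20 with single libraries left out. Tgfbr3 was 0.13 and Smad7 0.082 without both replicate 1 libraries, and Smad7 ran from −0.32 to 0.098 with single libraries left out. Thbs1 ran from −0.074 to 0.89 with single libraries left out and was −0.026 without both replicate 1 libraries. Members past the test were 0, and 2 with replicate 1 as a covariate and 2 without both replicate 1 libraries, where Hsf1 was at −0.46 (limma adjusted p = 0.0433). Genes past the test were 3, and 18 with no filter, 22 with no variance trend, 11 with limma-voom, 20 with the replicate block, 642 with replicate 1 as a covariate, 1262 without both replicate 1 libraries, and 0 to 8 with single libraries left out (0 without shHSF1 replicate 2 or shCTL replicate 2, with 778 and 771 at an unadjusted p under 0.05). Members past the test stayed at 0 with each single library left out. With the replicate block no member and no gene of the pathway lists was called. That fit called 1 epithelial marker higher, beside 0.176% of all genes tested in either direction. The cause of these shifts was not tested. With single libraries left out, the Tgfb1 share differed by 0.586 to 11.0 percentage points and the log2 receptor ratio by 0.17 to 0.80. Depth limits Bmp4 alone among the members, at 1 read in 6 libraries.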
